A study of Mus musculus with 6 samples.

Results

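The receptors and signalling genes of the type 2 cytokines IL-4, IL-5, IL-9, IL-13 and IL-25 were followed in whole lungs of mice that lack Foxa2, a transcription factor with a forkhead domain that acts in airway and alveolar epithelium. The 9 genes were a fixed list of names: the receptor chains Il4ra, Il13ra1, Il13ra2, Il5ra, Il9r and Il17rb, the transcription factor Stat6, and the feedback inhibitors Cish and Socs1. Every probe set annotated to exactly 1 of these symbols was taken, which gave 16 of the 45037 probe sets tested, and 9 of 18193 genes. Il13ra1 had 5 probe sets, Il4ra had 3, Stat6 had 2 and the other six genes had 1 each.

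The 6 arrays were hybridised with RNA of whole lung at postnatal day 15, 3 from littermates with the genotype label wildtype, control and 3 with the label Foxa2-/-, here called null. The strain label is the same in both groups, SPC(+)Cre(-) with doxycycline (Dox) from embryonic day 6.5 to 12.5, so for the null lungs it conflicts with the genotype label. SPC commonly stands for surfactant protein C, whose promoter is used to drive transgenes in lung epithelium, but the labels do not spell it out, and they say nothing of how the allele was deleted, of the sex of the mice or of any pooling. Signal is given on a log2 scale, on which a difference of 1 is a factor of 2. Foxa2 itself read 10.28, 10.56 and 10.28 in the controls and 7.72, 5.38 and 5.13 in the null lungs, so its signal followed the genotype label in each sample and null replicate 1 kept the most (limma adjusted p = 0.0599 over all genes). The array medians lay between 7.85 and 7.91, and 3 arrays a group limit the precision of every value below. Gapdh control probe sets at the ends of the transcript, whose gap reads RNA integrity, differed by 1.06 to 1.23 log2 units on the control arrays and by 0.91 to 0.97 on the null arrays, and the part of this gap in any result was not tested. Lung epithelium was well represented: Sftpc, which encodes surfactant protein C, read at least 14.35 on every array.

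IL-4 and IL-13 both act through the IL-4 receptor alpha chain. IL-4 pairs it with the common gamma chain on blood cells and with the IL-13 receptor alpha 1 chain on other cells, and IL-13 uses the latter pair. Janus kinases on these chains activate STAT6, which switches on genes of mucus production, chemokines and alternative macrophage activation. The IL-13 receptor alpha 2 chain binds IL-13 tightly, has only a short cytoplasmic tail and is known mainly as a decoy. IL-5 and IL-9 signal largely through STAT5, and CIS (the product of Cish) and SOCS1 are induced by STAT signalling and dampen it.

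None of the 9 genes passed the test across all genes, but Il13ra2, the decoy receptor gene, stood well above the others in the size of its difference. It was 3.68-fold higher in the null lungs on average, with every null array above every control. Il17rb, the IL-25 receptor chain, was 1.96-fold higher on average with 1 null lung among the controls. Il4ra and Socs1 were slightly higher (1.24-fold and 1.25-fold) without overlap of the groups, while Il13ra1, Stat6 and Il9r differed by less than 0.06 on their brightest probe set. With limma, 0 of the 16 probe sets had an adjusted p under 0.05, where 0.0999% of all probe sets did (0.0799% upward), and 4 had an unadjusted p under 0.05, where 10.7% of all did. Counted by gene on the brightest probe set, 0 of 9 passed (0.572% of all genes) and 2, Il13ra2 and Socs1, had an unadjusted p under 0.05 (12.3% of all genes). Every null array lay above every control for 6 of the 16 probe sets (9.73% of all) and 3 of the 9 genes (10.8% of all), and below every control for 0 of either (7.76% and 8.73% of all). The median log2 difference of the 9 genes was 0.30, beside 0.0053 over all genes, and 8 of the 9 were above 0.

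**Figure D1:**
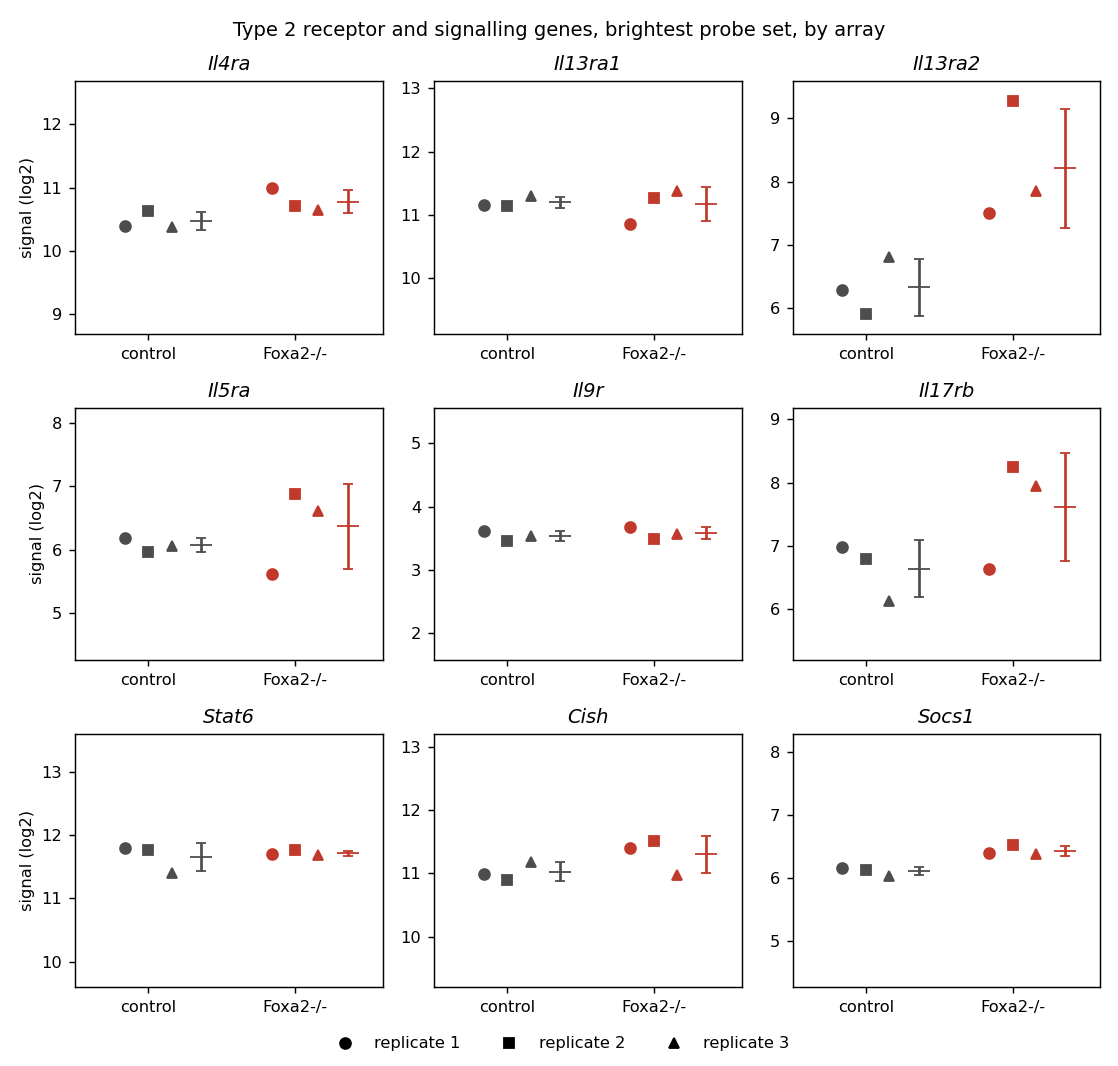
Log2 signal (vertical axis, each panel spanning 4 log2 units) of the brightest probe set of each gene on the 3 control arrays (grey) and the 3 Foxa2-/- arrays (red), with symbols for replicate 1 to 3; the bar beside each group is its mean ± SD. Il13ra2, Il4ra and Socs1 have every Foxa2-/- array above every control, and replicate 1 of the Foxa2-/- group lies apart from replicates 2 and 3 for Il5ra and Il17rb.

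The receptor alpha chain that IL-4 and IL-13 share was slightly higher on each of its probe sets. The brightest read 10.39, 10.63 and 10.39 in the controls and 10.99, 10.70 and 10.65 in the null lungs. The lowest null value exceeded the highest control by a small margin, and null replicate 1 was the highest array on all 3 probe sets of Il4ra. The difference was 0.31 (SE 0.14, 95% interval -0.03 to 0.65, limma adjusted p = 0.444 over all genes). On the other Il4ra probe sets the differences were 0.41 (SE 0.16, adjusted p = 0.433 over all probe sets) and 0.22 (SE 0.17, adjusted p = 0.705), the latter from a probe set whose name ends in _x_at, a suffix for probes that may bind other sequences too.

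The IL-13 binding chains differed in size of effect. Il13ra1, the signalling chain, read 11.15, 11.14 and 11.30 in the controls and 10.86, 11.27 and 11.37 in the null lungs, with null replicate 1 below and null replicate 3 above every control. Its difference on the brightest probe set was -0.03 (SE 0.16, 95% interval -0.42 to 0.35, limma adjusted p = 0.953 over all genes), an interval that holds changes in either direction. Of the remaining 4 probe sets of Il13ra1, 3 had overlapping groups, with differences of 0.05, 0.18 and 0.10 from the brightest to the dimmest, and the last of these was below the 25th percentile of its array on all 6 arrays. The fourth in brightness, whose name ends in _s_at for probes shared by several transcripts, read 7.68, 7.39 and 7.73 in controls and 7.90, 8.01 and 8.04 in null lungs, a difference of 0.38 (SE 0.13, adjusted p = 0.389 over all probe sets). It was the only probe set of Il13ra1 without overlap, so the probe sets of this gene do not give the same picture.

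Il13ra2 read 6.28, 5.91 and 6.80 in the controls and 7.50, 9.27 and 7.86 in the null lungs. Null replicate 2 was far above the other null lungs, and control replicate 3 came nearest to the null range. The means were 6.33 ± 0.45 and 8.21 ± 0.94 (log2, SD, n = 3 each), a difference of 1.88 (SE 0.48, 95% interval 0.73 to 3.03). The limma adjusted p was 0.178 over all genes and 0.236 over all probe sets. By size of increase Il13ra2 was number 88 of 18193 genes, and by limma p it was number 663. In bulk lung, more cells that carry a transcript and more of the transcript per cell cannot be told apart, here or for any gene that follows.

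The decoy and the signalling chain were then set against each other within each array. Relative to the mean of the controls, Il13ra2 was 1.17, 2.94 and 1.53 higher in null replicates 1 to 3, while Il13ra1 differed by -0.34, 0.07 and 0.17. The mean difference of Il13ra2 exceeded that of Il13ra1 by 1.91 log2 units, a description of a pair chosen after its values were seen.

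**Figure D2:**
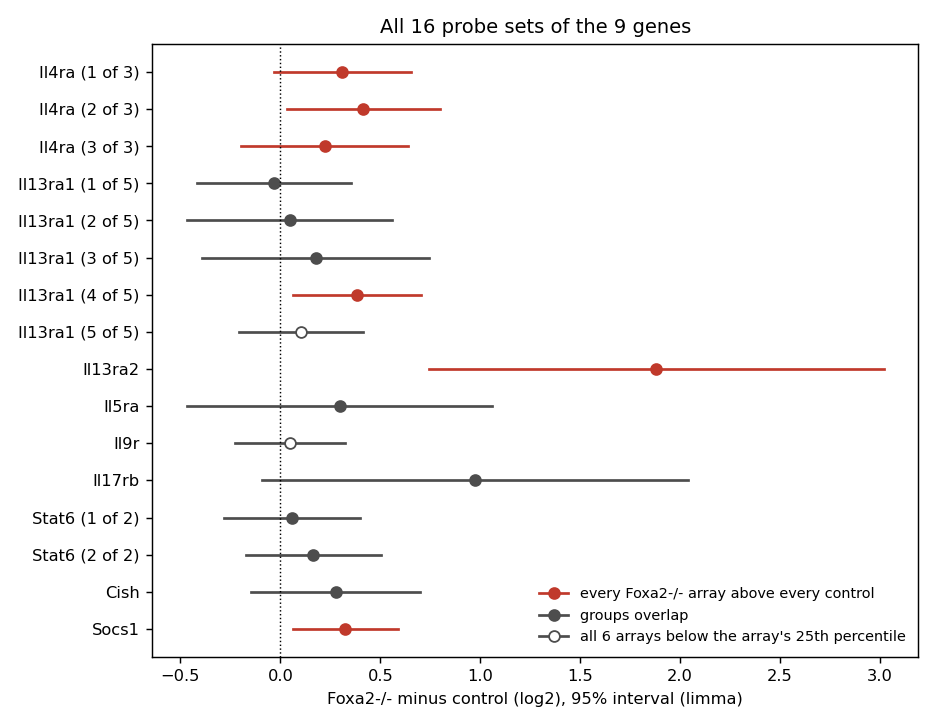
Difference between Foxa2-/- and control (log2, horizontal axis) with its 95% interval from limma for all 16 probe sets, from the brightest to the dimmest within a gene; red marks probe sets with every Foxa2-/- array above every control, and open circles those below the 25th percentile on all 6 arrays. The interval of Il13ra2 (0.74 to 3.02 in the fit over all probe sets) lies to the right of 0, as do those of 1 probe set of Il4ra, 1 of Il13ra1 and that of Socs1.

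Il5ra encodes the chain that gives the IL-5 receptor its specificity and is carried by eosinophils and some B cells. It read 6.19, 5.96 and 6.06 in the controls and 5.61, 6.88 and 6.61 in the null lungs. Null replicates 2 and 3 were above every control and null replicate 1 was below every control. The mean difference was 0.30 (SE 0.32, 95% interval -0.47 to 1.06, limma adjusted p = 0.748 over all genes). Without null replicate 1 it was 0.67 (SE 0.13, adjusted p = 0.0920), and without null replicate 2 it was 0.04 (adjusted p = 0.971), so the mean over 3 null lungs describes none of them well.

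Csf2rb, the signalling beta chain that Il5ra shares with the receptors for IL-3 and GM-CSF, did pass. It read 10.25, 10.55 and 10.47 in the controls and 11.78, 12.19 and 11.93 in the null lungs, with no overlap. The rise was 1.54 (SE 0.15, 2.92-fold, limma adjusted p = 0.0217 over all genes), and its other probe set gave 1.80. Csf2rb2, the closely related mouse beta chain that serves IL-3, rose by 1.98 (SE 0.17, adjusted p = 0.0190). The sequences of both genes are very similar, so part of either signal may come from the other. The mean difference of Csf2rb exceeded that of Il5ra by 1.25, likewise a description. Both calls were lost when any of the arrays other than null replicate 1 was left out (differences of 1.43 to 1.61 for Csf2rb and 1.86 to 2.09 for Csf2rb2). With the number that opens the sample titles as a fixed block, the differences of Csf2rb and Csf2rb2 were 1.51 and 1.83. That fit rests on control replicate 2 and null replicates 2 and 3, which share the number, and 1 control cannot decide a call.

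Il9r, the IL-9 receptor chain, was at the bottom of the scale. Readings were 3.62, 3.45 and 3.54 in the controls and 3.68, 3.49 and 3.57 in the null lungs, all below the 25th percentile of their arrays (5.69 to 5.78), so the deposited values do not show whether any Il9r signal is above background. The difference was 0.05 (SE 0.11, 95% interval -0.22 to 0.31, limma adjusted p = 0.894 over all genes).

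Il17rb binds IL-25 and is known from type 2 innate lymphoid cells and Th2 cells. It read 6.98, 6.79 and 6.13 in the controls and 6.63, 8.25 and 7.95 in the null lungs. Null replicates 2 and 3 were more than 0.9 above the highest control, and null replicate 1 lay among the controls. The difference was 0.97 (SE 0.45, 95% interval -0.10 to 2.05, limma adjusted p = 0.449 over all genes), and without null replicate 1 it was 1.46 (SE 0.28, adjusted p = 0.0861). Without null replicate 2 it was 0.66 (adjusted p = 0.634) and without control replicate 3 it was 0.72 (adjusted p = 0.713). Its partner chain Il17ra, which transmits signals of several IL-17 cytokines, was 0.50 higher (SE 0.15, adjusted p = 0.243) with every null array above every control.

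Stat6, the transcription factor through which IL-4 and IL-13 act on genes, was bright, and its difference was close to 0. Its brighter probe set read 11.80, 11.77 and 11.40 in the controls and 11.70, 11.76 and 11.68 in the null lungs. All 3 null values fell inside the control range, and the difference was 0.06 (SE 0.14, 95% interval -0.28 to 0.39, limma adjusted p = 0.898 over all genes). The dimmer probe set gave 0.17 (SE 0.14, adjusted p = 0.724 over all probe sets) with overlapping groups. These are transcript levels, and the phosphorylation by which STAT6 is activated was not measured.

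Neither feedback inhibitor passed the test. Socs1, which blocks Janus kinases, read 6.16, 6.13 and 6.04 in the controls and 6.39, 6.52 and 6.39 in the null lungs. The spread within each group was narrow (SD 0.06 and 0.08), the groups did not overlap, and the difference was 0.33 (SE 0.11, 95% interval 0.07 to 0.58, limma adjusted p = 0.280 over all genes). Cish, whose product CIS competes for STAT5 docking sites, read 11.00, 10.89 and 11.18 in the controls and 11.41, 11.52 and 10.97 in the null lungs. Null replicates 1 and 2 were above every control and null replicate 3 was among them, with a difference of 0.28 (SE 0.18, 95% interval -0.14 to 0.70, adjusted p = 0.591).

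Promoter sequences of all 9 genes were matched in RefSeq (build GRCm38.p6). They are shown for the 3 genes whose groups did not overlap and for Cish, which held the STAT5-type matches, from 250 bases before the annotated start to 30 after it, on the strand of the gene. Capitals mark matches to the STAT5-type motif TTCNNNGAA, the STAT6-type motif TTCNNNNGAA (both read alike on either strand) or the forkhead cores TGTTTAC and TATTTAC on either strand, none of which overlap one another here.
Il13ra2, chrX:147429163-147429442, minus strand: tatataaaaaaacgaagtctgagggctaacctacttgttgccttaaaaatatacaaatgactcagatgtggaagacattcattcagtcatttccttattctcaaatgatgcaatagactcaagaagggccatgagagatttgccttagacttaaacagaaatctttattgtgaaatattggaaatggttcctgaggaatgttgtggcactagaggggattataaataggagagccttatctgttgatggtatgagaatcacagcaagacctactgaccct
Il4ra, chr7:125552021-125552300, plus strand: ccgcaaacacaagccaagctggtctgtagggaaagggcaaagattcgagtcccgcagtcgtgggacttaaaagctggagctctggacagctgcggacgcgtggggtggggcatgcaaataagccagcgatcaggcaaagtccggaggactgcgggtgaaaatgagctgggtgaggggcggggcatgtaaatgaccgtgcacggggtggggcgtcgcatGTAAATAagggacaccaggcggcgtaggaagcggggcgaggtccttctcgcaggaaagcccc
Socs1, chr16:10785507-10785786, minus strand: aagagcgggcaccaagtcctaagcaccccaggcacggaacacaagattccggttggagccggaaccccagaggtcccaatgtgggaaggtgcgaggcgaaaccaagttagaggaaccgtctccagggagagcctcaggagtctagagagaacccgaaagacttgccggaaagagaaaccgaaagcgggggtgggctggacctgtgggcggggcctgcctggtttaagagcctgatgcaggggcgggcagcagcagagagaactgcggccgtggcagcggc
Cish, chr9:107296409-107296688, plus strand: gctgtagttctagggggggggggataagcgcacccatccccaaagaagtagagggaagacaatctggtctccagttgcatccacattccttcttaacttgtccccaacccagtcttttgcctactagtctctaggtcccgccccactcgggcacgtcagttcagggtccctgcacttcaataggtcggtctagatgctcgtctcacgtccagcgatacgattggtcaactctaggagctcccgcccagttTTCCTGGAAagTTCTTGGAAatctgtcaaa
In the 300-base windows, which run to 50 bases after the start, 3 of the 9 genes held a match. Cish held 2 STAT5-type matches, TTCCTGGAA and TTCTTGGAA, that begin at bases 1 and 12 counted from the annotated start, where 8.30% of 32851 promoters of that length hold such a match. Il5ra held the STAT6-type match TTCAATAGAA from base 28 (6.95% of promoters) and the forkhead core GTAAACA from base 11, and Il4ra held the forkhead core GTAAATA from base -32 (6.54% of promoters). In the windows of Il13ra2, Il13ra1, Il17rb, Il9r, Stat6 and Socs1 these letters were not found. A match is a description of the sequence and not a binding site, and no binding was measured.

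The cytokines that feed these receptors had dim probe sets. Il4 read 5.24, 5.47 and 5.97 in the controls and 6.25, 7.74 and 6.99 in the null lungs, and Il13 read 5.37, 5.44 and 5.21 against 6.35, 7.51 and 5.98. Neither overlapped between groups and neither passed (limma adjusted p = 0.200 and 0.234 over all genes). Il5 read 7.03 in null replicate 2 and between 4.50 and 4.88 on the other arrays, while Il9 and Il25 were below the 25th percentile on all 6 arrays. Null replicate 2, the array with the highest Il4, Il5 and Il13, was also the one with the highest Il13ra2, Il5ra, Il17rb, Cish and Socs1. The others peaked elsewhere: Il4ra and Il9r in null replicate 1, Il13ra1 in null replicate 3 and Stat6 in control replicate 1. A link between cytokine and receptor signal was not tested.

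Beyond the 9 genes, 61 further pathway genes were measured, of which 45 were above 0 and 16 below. Of the 61, 5 passed upward and 0 downward (0.473% and 0.0989% of all genes). Those that passed were Csf2rb and Csf2rb2 and the IL-4 and IL-13 response genes Slc26a4, Ccl17 and Ccl24. Of the 6 shared and partner chains 2 passed, and the median difference was 0.53. Il7r, a chain of the IL-7 and TSLP receptors, read 8.31, 10.70 and 10.64 in the null lungs and 9.72, 9.75 and 8.54 in the controls, with null replicate 1 again on the low side. Crlf2, the TSLP receptor chain, was 0.36 higher (adjusted p = 0.421). These last 2 chains and Il17ra were added to the names after their values were seen.

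The intracellular relays showed no call with limma. None of 4 Janus kinases, 5 other STAT genes, 6 other SOCS genes or 8 adaptors and phosphatases passed. In these lists 0, 1, 1 and 3 genes had an unadjusted p under 0.05 (12.3% of all genes). The medians were 0.11, 0.41, -0.15 and -0.23. Jak3, the kinase on the common gamma chain, differed by 0.45 (adjusted p = 0.425) and Jak1, which serves many cytokine receptors, by -0.21 (adjusted p = 0.489). Every null array was below every control for Jak1. Stat3 differed by 0.41 (adjusted p = 0.238), and Stat5a, which carries IL-5 signals, by 0.28 (adjusted p = 0.482). Socs3, an inhibitor of IL-6 type signals, differed by 0.64 (SE 0.17, adjusted p = 0.190) without overlap and Socs5 by -0.29 (adjusted p = 0.537). Ptpn6, the phosphatase SHP-1 of blood cells, was 0.79 higher (SE 0.14, adjusted p = 0.0795) and Ptpn1 0.43 higher (adjusted p = 0.302), both without overlap. Of the 8 adaptors and phosphatases, 5 were below 0. Irs1 and Traf3ip2, named after their values were seen, had every null array below every control (-0.29 and -0.18, adjusted p = 0.305 and 0.610).

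Genes known to be induced by IL-4 or IL-13 had the highest median of the pathway lists, 1.69 over 19 genes, with 18 above 0 and 13 without overlap above the controls (10.8% of all genes). Slc26a4, the anion exchanger pendrin, rose 48.2-fold, from 6.58, 6.37 and 8.06 to 11.90, 13.42 and 12.46 (limma adjusted p = 0.0222 over all genes). The chemokines Ccl24 and Ccl17 rose 12.4-fold (adjusted p = 0.0429) and 5.41-fold (adjusted p = 0.0360). In the fit over all probe sets Slc26a4 passed, while Ccl17 and Ccl24 had adjusted p values of 0.0654 and 0.0742. With the title number as a fixed block, which holds 1 control and cannot decide a call, the differences were 6.57, 2.04 and 4.48 for Slc26a4, Ccl17 and Ccl24. The call of Slc26a4 was lost without control replicate 1 or 2 or null replicate 2 or 3 (limma adjusted p up to 0.138). That of Ccl17 was lost whenever an array other than null replicate 1 was left out (up to 0.168). That of Ccl24 was lost whichever array was left out (up to 0.197). In the runs without control replicate 1 or 2 or null replicate 3, no gene of any kind passed. Genes induced by STAT5, 8 in all, had a median of 0.21 and no call, and 4 of them had an unadjusted p under 0.05 (12.3% of all genes). Among them Osm, a cytokine of the IL-6 family, differed by 0.80 (SE 0.20, adjusted p = 0.176) and Gimap5, a survival factor of lymphocytes, by -0.75 (SE 0.21, adjusted p = 0.210). The lists were drawn up with earlier results of these data known, so their counts and medians are descriptions.

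**Figure D3:**
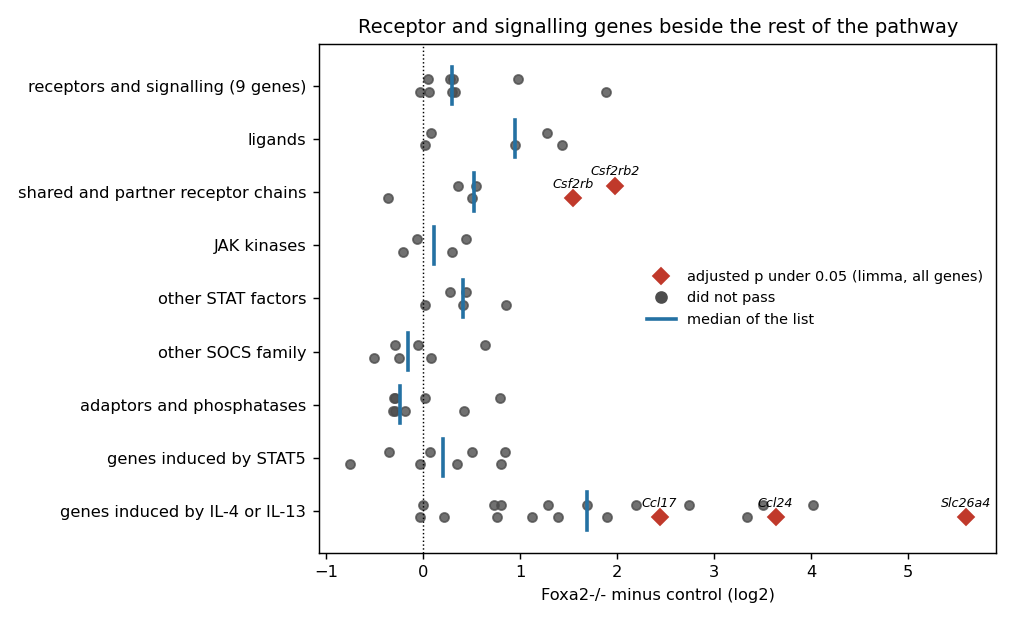
Log2 difference between Foxa2-/- and control (horizontal axis) for each gene of the pathway lists, with the list median as a blue bar and red diamonds for genes with a limma adjusted p under 0.05 over all genes. The 9 receptor and signalling genes have a median of 0.30 and no red diamond, and the calls lie among the shared and partner chains and the genes induced by IL-4 or IL-13.

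Among markers of blood cells, calls were limited to eosinophil and macrophage genes, in 2 of the 6 lists. Of 5 measured eosinophil markers, all above 0, 3 passed: Prg2 (11.3-fold, limma adjusted p = 0.0152), Epx (adjusted p = 0.0208) and Prg3 (adjusted p = 0.0429). Of all genes 0.473% passed upward. Every null array lay above every control for 4 of the 5 (10.8% of all genes). In the controls Epx and Prg3 were below the 25th percentile on 2 and 3 of the arrays.  The summed signal of the 5 markers (log2) ranged from 9.53 to 9.92 on control arrays and from 11.33 to 12.40 on null arrays. Siglecf was the brightest of the 5 on each control array (8.70 to 9.46) and weighs most in the sum there. Of 7 macrophage markers, also all above 0, 2 passed: Cd68 (2.73-fold, adjusted p = 0.0198) and Itgax (3.85-fold, adjusted p = 0.0360). Every null array lay above every control for 4 of the 7. The 7 summed to between 12.67 and 12.72 on control arrays and between 13.52 and 14.04 on null arrays. Prg3 and Itgax did not pass in the fit over all probe sets (adjusted p = 0.0762 and 0.0654). The fit with the title number as a fixed block holds 1 control and cannot decide these 5 marker calls. In that fit the differences were 3.668 for Prg2, 2.938 for Epx, 1.696 for Prg3, 1.595 for Cd68 and 1.642 for Itgax. The main fit gave 3.501, 2.402, 1.546, 1.450 and 1.943 in the same order. The calls of Prg2 and Epx were lost without control replicate 1 or 2 or null replicate 2 or 3 (limma adjusted p up to 0.104 and 0.137). Those of Cd68 and Itgax were lost whenever an array other than null replicate 1 was left out (up to 0.138 and 0.168). That of Prg3 was lost whichever array was left out (up to 0.201). In the runs without control replicate 1 or 2 or null replicate 3, no gene of any kind passed. No marker passed in the lists of T cells (6 genes, sum 11.09 to 12.88 and 12.67 to 13.76), B cells (6 genes, 11.63 to 12.40 and 11.88 to 12.73), mast cells and basophils (7 genes, 11.73 to 12.16 and 11.69 to 11.89) or type 2 innate lymphoid cells (6 genes, 12.17 to 12.38 and 12.13 to 13.64). In these lists 2, 0, 2 and 2 genes had an unadjusted p under 0.05 with limma (12.3% of all genes). The mast cell sum is made up mainly of Kit (11.29 to 11.99), the brightest of its list. The mean of that list was 6.90 to 7.17 on control arrays and 7.15 to 7.44 on null arrays, and 5 of its 7 genes were above 0. The T cell markers with the smallest p were Cd8a and Cd4 (2.27 and 1.06), those of B cells Cd22 and Cd79b (0.67 and 0.37), those of mast cells Mcpt4 and Cma1 (0.60 and 0.65) and those of innate lymphoid cells Arg1 and Klrg1 (4.01 and 1.73). Other genes of these last lists differed little or the other way, such as Kit and Cpa3 of mast cells (-0.24 and -0.02) and Rora, Hlf and Gata3 of innate lymphoid cells (-0.58, -0.47 and 0.09), which were chosen after their values were seen. Pax5 and Fcer1a, defining genes of B cells and of mast cells and basophils, were below the 25th percentile on all 6 arrays. Arg1, the arginase of alternatively activated macrophages, is also on the list of IL-4 and IL-13 response genes. The part of these cells in the receptor values was not tested.

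Markers of resident tissue gave no call. No gene passed among 8 of epithelium (sum 16.53 to 16.59 for control arrays, 16.56 to 16.62 for null), 6 of fibroblasts and smooth muscle (15.53 to 15.67 and 15.47 to 15.53) or 6 of endothelium (14.85 to 14.99 and 14.54 to 15.08), and none had an unadjusted p under 0.05. The smallest p values belonged to Sftpa1 and Ager (0.32 and -0.16), Dcn and Pdgfra (-0.67 and -0.19), and Kdr and Tie1 (-0.36 and -0.42). The epithelial sum is made up mainly of Sftpc, Sftpa1, Scgb1a1 and Ager. Each read at least 13.93 on every array, near the maximum of all values (14.88), so the sum says little of the dimmer genes of that list.

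**Figure D4:**
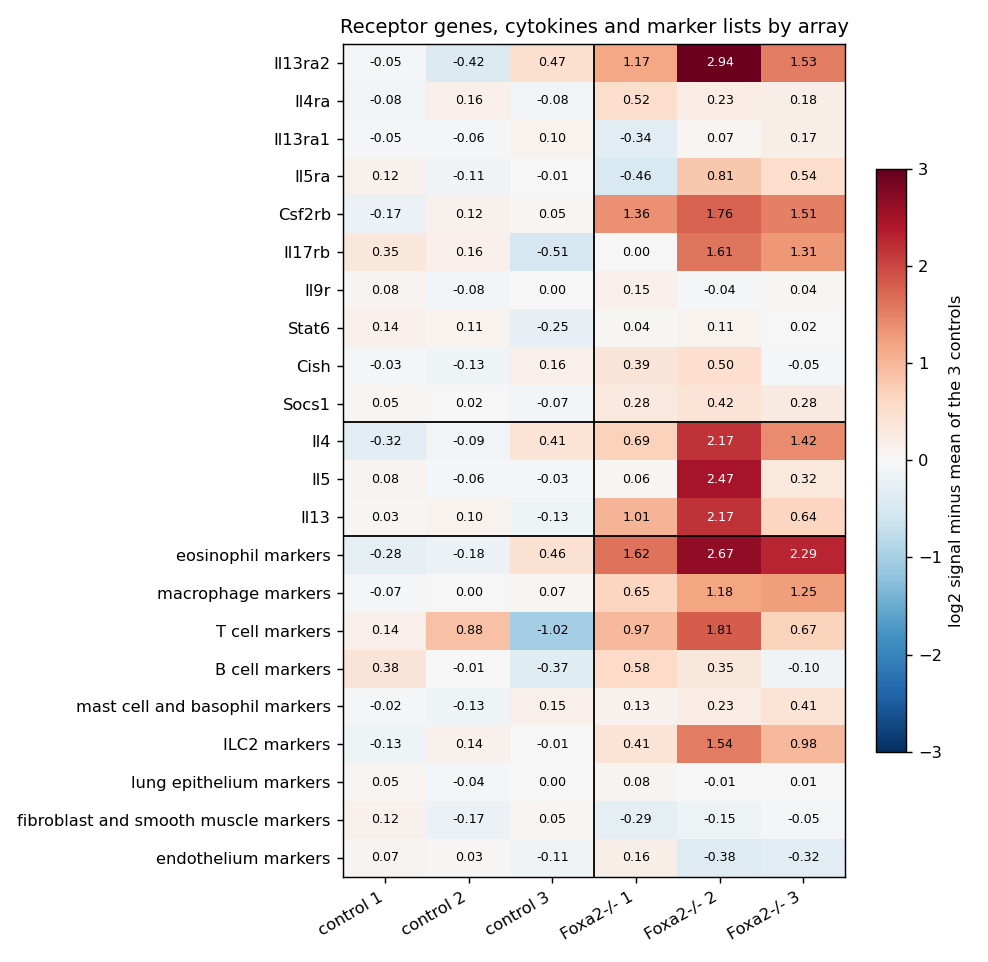
Log2 signal minus the mean of the 3 controls on each array (columns) for the 9 receptor and signalling genes with Csf2rb, for 3 cytokines, and for the mean of each marker list; colour runs from -3 (blue) to 3 (red). Replicate 2 of the Foxa2-/- group has the highest Il13ra2 (2.94), Il5 (2.47) and eosinophil markers (2.67), and replicate 1 stays near or below the controls for Il5ra (-0.46) and Il17rb (0.00).

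The meaning of the number in the sample titles is not given. Among the 3 arrays that share one, with 1 control, Il13ra2 differed by 2.66, Il17rb by 1.30, Il5ra by 0.78, Cish by 0.36 and Socs1 by 0.33. Il4ra differed by only 0.04 there, against 0.31 over all arrays. This set holds the highest control for Il4ra and lacks null replicate 1, its highest null array, without which the difference over the remaining arrays was 0.21. Null replicate 1 lies outside this set and the other 2 controls carry numbers of their own. For Il5ra, Il17rb and Il4ra the title number therefore cannot be told apart from the single array.

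Other transcripts followed the pattern of the 3 genes with the largest differences across the 6 arrays, by the root mean square difference of the centred log2 values. Nearest to Il13ra2 were Aqp9, a channel for water and glycerol (0.16), Prtn3, a granule protease (0.21), and Ch25h, which makes 25-hydroxycholesterol (0.23). Nearest to Il17rb were Samsn1 (0.08), Slc39a12 (0.10) and E230016K23Rik (0.12), and nearest to Socs1 were Polr1d, an RNA polymerase subunit (0.02), Prr13 (0.04) and Krt83 (0.05). None of these 9 genes passed the test, with limma adjusted p values between 0.103 and 0.512. That is no separate result, since they were picked for their likeness to genes that did not pass.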

How the data were processed

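Biotin-labelled total RNA of whole mouse lung was measured on 6 Affymetrix arrays. The deposited values are log2 signals per probe set that the authors made with RMA, per the submitters' processing notes, which name no version. RMA brings arrays to one distribution, so a shift of most genes would be hidden. No label names the log base, which was taken from the range, 2.36 to 14.88. Left out were 64 Affymetrix control rows of 45101.

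Groups follow the genotype label. Replicate numbers follow accession order and pair nothing. Whether the arrays of a group come from different mice is not labelled; p-values measure only the spread among these samples, which may be technical. Symbols come from the platform annotation: 34945 probe sets have 1 symbol, 932 several and 9160 none. A gene is represented by its brightest single-gene probe set. Of 136 list entries 127 had one; the others, Il2rg and Il1rl1 among them, were not analysed here.

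limma 3.58.1 (R 4.3.3; lmFit, eBayes, null minus control, no covariate) was fitted over all probe sets and, separately, all genes, with Benjamini-Hochberg adjustment, two-sided, threshold 0.05, and was tested on simulated data. Genes named were all 9 with every probe set, Foxa2, the 5 cytokines, listed genes that passed or otherwise the 2 with the smallest p per list, and the 3 nearest patterns for each of the 3 largest differences. The 9 genes and the lists were chosen with earlier results of these data known. The motif search and the 2 chain pairs, which carry no test, were added after the values were seen. Alternatives are given in the closing section.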

Additional observations from a re-analysis of the deposited data

How the results depend on the processing

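Leaving aside the title number as a fixed block, which holds 1 control, the count of the 9 genes passing was 0 under every alternative except array weights. There it was 1 (Il13ra2, log2 difference 2.31, limma adjusted p = 0.0448), and 607 of all 18193 genes passed, beside 104 in the main fit. Array weights give null replicate 1 a weight of 0.22, the lowest. The count of the 16 probe sets passing was 0 under each of these alternatives, array weights included. With each array left out in turn, the counts ranged from 0 to 0 for genes and for probe sets, with 1 to 4 genes and 1 to 6 probe sets at an unadjusted p under 0.05. Il13ra2 stayed above 0 in all 14 of its alternatives, between 1.35 (without null replicate 2) and 2.66 (title number as a fixed block), with limma adjusted p from 0.0448 to 0.449. Il4ra, Il5ra, Il17rb, Cish and Socs1 also kept their sign in all of theirs. The sign turned for differences near 0. Il13ra1 became 0.10 with array weights, 0.18 and 0.043 with the title number as a fixed and a random block, and 0.14 with the mean of its probe sets. With each array left out it ranged from -0.13 to 0.12, above 0 without control replicate 3 (0.020) or null replicate 1. Il9r became -0.0027 with array weights and ranged from -0.0028 (without null replicate 1) to 0.092 with each array left out. Stat6 became -0.048 with the title number as a fixed block and ranged from -0.071 (without control replicate 3) to 0.13 with each array left out. The cause was not tested. The filters on dim signal leave 8 genes (25th percentile) and 4 genes (median). The fixed block rests on 1 control and 2 null arrays. The labels give no replicate numbers, so none were used as a block.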
